A study of Citrullus lanatus with 6 samples.

Results

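Wide binding sites of ClNAC56 are genomic intervals where the enriched stretch of watermelon DNA was long in both deposited lists of peaks, T2 and T3. They were chosen by width: a T3 peak of at least 500 bp on chromosomes 1 to 11 had to overlap, by at least 1 bp, a T2 peak of at least 450 bp. This rule kept 378 sites out of 2489 overlapping pairs of peaks (15.2%, 95% Wilson interval 13.8 to 16.7, treating sites as independent). The study mixed ClNAC56 protein made in vitro with leaf genomic DNA of watermelon (Citrullus lanatus) and sequenced the recovered fragments, a method known as DNA affinity purification sequencing (DAP-seq). Of 6 samples, 3 received ClNAC56 and 3 received MBP, maltose-binding protein, which the labels name as the control. All 6 used DNA from leaves, and no genotype, age, dose or time is given. No label ties a list to a library, so the values below carry no error between libraries, and whether the lists share reads is not known.

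NAC proteins are a large plant-specific family of transcription factors, named after NAM, ATAF and CUC. They bind DNA through a conserved N-terminal NAC domain, usually as dimers, and family members take part in development, senescence, fruit ripening and stress responses. In DAP-seq the DNA is a purified fragment library without nucleosomes or other nuclear proteins, so a peak shows where the protein can bind naked DNA. The summit of a peak is the position covered by the most fragments, and the edges mark where the coverage no longer passes the peak caller's threshold. A strongly bound position lifts its flanks above that threshold over a longer stretch, and neighbouring bound positions can be joined into a single peak.

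The values that chose the members are given first, as a description without a test. The median width of the wide sites was 544 bp in T2 (interquartile range 500 to 614) and 572.5 bp in T3 (533 to 639). The other 2110 overlapping pairs had medians of 374.5 bp and 387 bp. A second T2 peak lying under a wide T3 peak gave 1 more pair, which was put in neither set. The wide sites spanned 220613 bp in T2 and 232991 bp in T3, which was 21.4% and 21.9% of all bases under overlapping peaks. A share of bases above the share of sites follows from choosing sites by width.

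The thresholds cut through a continuous range of widths. Just inside were sites at chr1:11243466-11244001 (536 bp in T3 and 450 bp in T2), at chr2:28070222-28070728 (500 and 507 bp) and at chr6:4167577-4168076 (500 and 476 bp). Just outside were sites at chr4:7604758-7605256 (499 bp in T3 and 470 bp in T2), at chr5:6042449-6042965 (499 and 475 bp) and at chr5:8690962-8691468 (507 and 449 bp). Folds in T3 were 4.02, 17.96 and 12.77 just inside and 10.54, 12.68 and 14.28 just outside, so the sites on either side of the thresholds overlapped in strength.

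Both lists placed the edges and summits of a wide site at nearly the same positions. The left edges lay a median of 22 bp apart and the right edges 20 bp apart. The summits lay a median of 6 bp apart (interquartile range 3 to 12), and at 25 sites they were identical. The stretch called in both lists covered a median of 92.9% of the wider peak. This agreement was not particular to wide sites. Among the other 2110 pairs the median distances were 16 bp for either edge and 7 bp for the summits. Their shared stretch covered a median of 91.9%, and 118 of them (5.59%, against 6.61% of wide sites) had identical summits. Widths of the lists had a Spearman rho of 0.81 across the 378 sites and of 0.66 across the other 2110 pairs. This is a description only, since the rule split the pairs by these same widths. The T3 peak was the wider at 308 wide sites (81.5%) and the narrower at 68, with the higher threshold asked of T3. Among the other pairs it was the wider at 1269 (60.1%) and the narrower at 822 (39.0%). The plot of widths shows most members close to a common line and a few for which 1 list joined a longer stretch than the other.

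**Figure D1:**
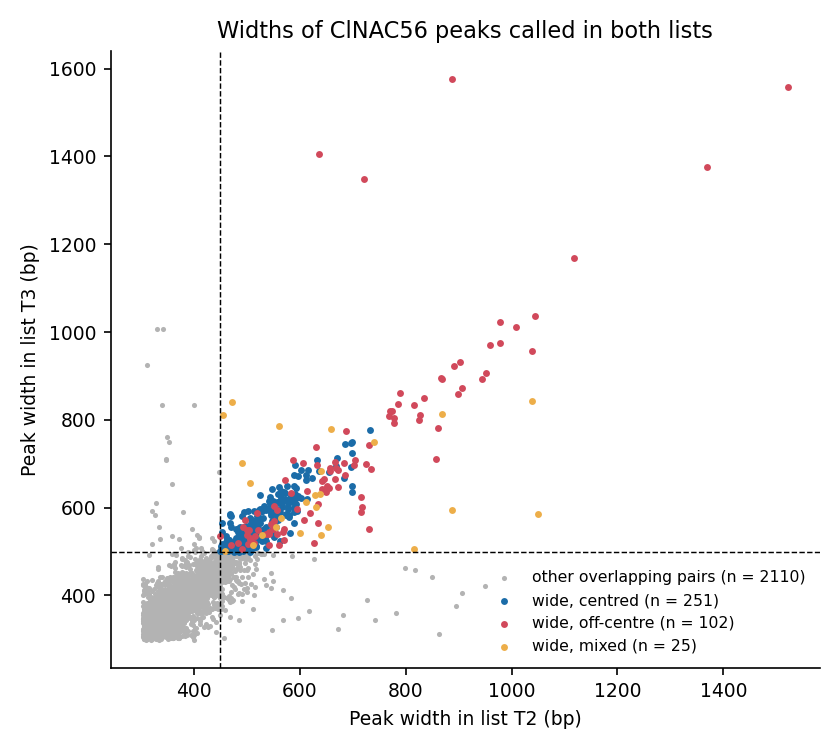
Width of each overlapping pair of peaks in list T2 (horizontal axis, bp) and list T3 (vertical axis, bp). Each point is a site, dashed lines are the thresholds of 450 and 500 bp, and colours give the place of the summit described in the text. The 378 wide sites fill the upper right corner, with widths up to 1521 bp in T2 and 1577 bp in T3.

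Wide sites came in different shapes, set apart by where the summit lay. A site was called off-centre where the longer arm, the distance from the summit to the farther edge, was at least 2 times the shorter arm in both lists, centred where it was less than that in both, and mixed otherwise. These classes were drawn up after the values had been seen. There were 251 centred sites (66.4%), 102 off-centre sites (27.0%) and 25 mixed sites. Among the other pairs 1897 (89.9%) were centred and 64 (3.03%) off-centre. The off-centre shape was therefore more frequent among wide sites in these lists, and no test was made because arms and width are parts of the same peak.

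**Figure D2:**
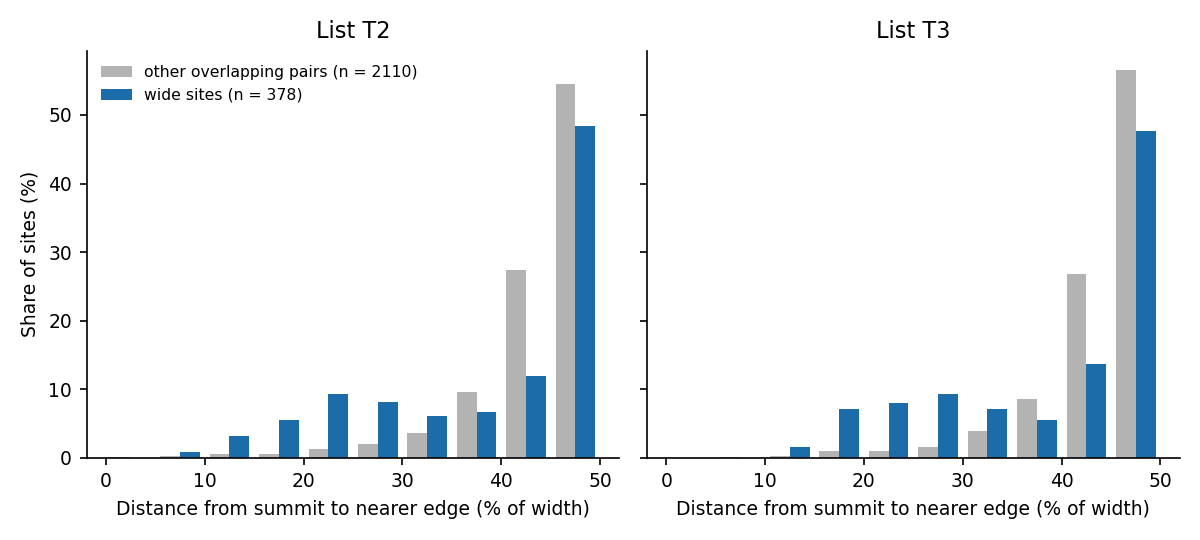
Share of sites (vertical axis, %) by the distance from the summit to the nearer edge as a percentage of the peak's width (horizontal axis), for the 378 wide sites and the 2110 other overlapping pairs in each list. A summit in the middle gives a value close to the right end of the axis. Wide sites show a main group of centred summits and a broad second group of smaller values, which is nearly missing among the other pairs.

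The arms show how these shapes differ. At the off-centre wide sites the shorter arm had medians of 159 bp (T2) and 160.5 bp (T3). That is close to the shorter arm of the other pairs, whose medians were 167 bp and 173 bp. The longer arm of the off-centre wide sites, in contrast, had medians of 515 bp (T2) and 496.5 bp (T3), against 206.5 bp and 213 bp in the other pairs. At the centred wide sites both arms were longer than in the other pairs, with medians of 242 bp and 275 bp in T2 and of 258 bp and 302 bp in T3. Set against all the other pairs, an off-centre wide site looked like an ordinary peak on 1 side of its summit. It carried a long extension on the opposite side, while a centred wide site was stretched on both sides. The 64 other pairs that were off-centre had median shorter arms of 90 bp (T2) and 102 bp (T3). Their longer arms had medians of 303 bp and 317 bp. Against these pairs of like shape, the off-centre wide sites were longer on both sides.

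Off-centre sites were also the longest. Their median width was 657 bp in T2 and 666 bp in T3, against 519 bp and 555 bp for the centred sites. No centred site was wider than 733 bp in T2 or 777 bp in T3. Of the 39 sites of at least 700 bp in both lists 35 were off-centre (89.7%), compared with 67 of the remaining 339 (19.8%).

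The side of the extension was the same in both lists at 90 of the 102 off-centre sites. In 57 of these it lay toward higher coordinates and in 33 toward lower coordinates. Counted in each list by itself, the longer arm lay toward higher coordinates at 63 of the 102 off-centre wide sites in T2 and in T3. Among centred wide sites, it did so at 118 of 251 in T2 and 124 of 251 in T3. The counts were 7 and 9 of 25 for mixed wide sites, and 35 and 36 of 64 for the off-centre other pairs. A preference for a side was not tested. At the remaining 12 off-centre sites the lists put the summit near opposite ends of their peaks.

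Strength divided the shapes as well. Fold enrichment, the authors' value for the pileup at the summit over the caller's background, was not used by the rule but comes from the same peaks, so it is described without a test. The wide sites had a median T2 fold of 10.3, with an interquartile range of 5.86 to 14.9, and a median T3 fold of 12.1, with a range of 6.33 to 18.7. In both lists 193 of them (51.1%) had at least a fold of 10, beside 12.5% of all 2489 overlapping pairs. Of T2 folds alone 194 of the wide sites were at 10 or more (12.8% of all pairs), and of T3 folds alone 219 (17.3% of all pairs).

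Most of the strong sites were centred. The centred wide sites had a median fold of 13.4 in T2 and 15.9 in T3. Of them 185 of 251 (73.7%) had a fold of 10 or more in both lists, out of the 193 wide sites that did. This was not particular to wide sites. Among the other pairs with such folds 116 of 117 were centred, against 89.9% of all other pairs. Centred other pairs had median folds of 6.11 in T2 and 6.51 in T3. The off-centre wide sites had median folds of 4.92 and 5.07, lower than the medians of 5.93 and 6.33 in the other, narrower pairs. They were higher, however, than the medians of 3.67 and 3.79 in the 64 other pairs that were also off-centre. Only 3 of the 102 off-centre sites reached a fold of 10 in both lists, and 46 (45.1%) stayed under 5 in both. Among the other pairs 16.3% stayed under 5 in both lists, and among the off-centre ones of these 85.9%. The mixed sites lay between, with medians of 8.04 and 7.95.

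Width rose with fold within the centred and within the off-centre sites, but not across all wide sites. In T3 the Spearman rho of width and fold was 0.00 over the 378 wide sites, 0.51 over the 251 centred sites and 0.62 over the 102 off-centre sites. In T2 the values were -0.11, 0.46 and 0.63. Over the 2110 other pairs rho was 0.53 in T2 and 0.59 in T3. These are descriptions across sites of the same libraries, and the cut on width shortens the range of the wide sites.

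**Figure D3:**
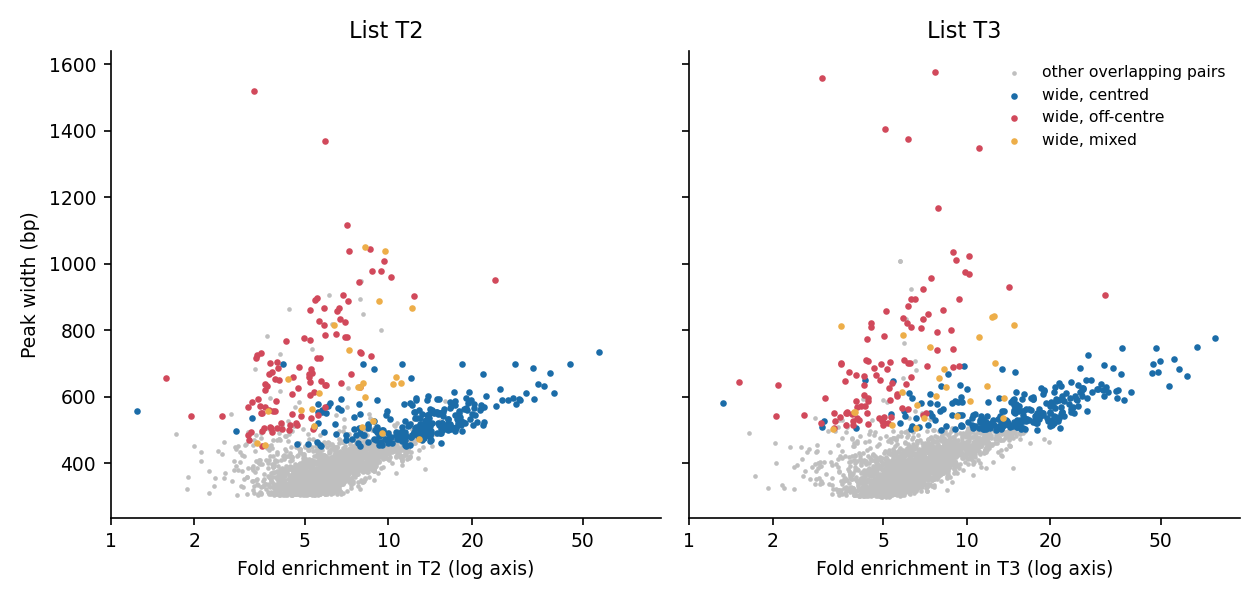
Peak width (vertical axis, bp) against the authors' fold enrichment (horizontal axis, log scale) in list T2 (left) and T3 (right), 1 point per overlapping pair. The centred wide sites continue the grey band of other pairs toward higher fold, and reach 57.2 in T2 and 78.1 in T3. The off-centre sites rise above the band at low fold, with medians of 4.92 and 5.07.

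The number of fragments over the summit, recovered from the scaled pileup, tells the same peaks apart by depth. Centred wide sites had a median of 325 fragments in T2 and 351 in T3, off-centre wide sites 118 and 114, and the other pairs 137 and 132. The background at the summit differed less. Its median was 4.51 in T2 and 4.34 in T3 for the wide sites and 4.04 and 4.001 for the other pairs, on the scale of the pileup.

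When all pairs were ordered by fragments at the T3 summit and cut into 10 equal parts, wide sites were found at every height. In the part with the most fragments, 296 to 6376, 177 of 249 pairs (71.1%) were wide, and 165 of these were centred. In the next part, 214 to 295 fragments, 56 of 249 (22.5%) were wide. The share was lowest, at 3.21%, in the part from 125 to 137 fragments, and it was 11.6% in the part with the fewest fragments, 47 to 88. The share of wide sites was thus high at the top, low in the middle and somewhat higher again at the bottom.

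Among pairs in the lower 5 parts, with at most 137 fragments, 67 of the 86 wide sites (77.9%) were off-centre, and 9 were centred. Of the 1158 other pairs in these 5 parts 58 (5.01%) were off-centre. Heights were not evenly matched within them. In the part with the fewest fragments 25 of 29 wide sites and 39 of 220 other pairs (17.7%) were off-centre. In the part from 125 to 137 fragments it was 6 of 8 wide sites and 0.415% of the other pairs. Over the 5 parts the wide sites had a median T3 fold of 5.0003 and the other pairs 5.64, while their T3 widths had medians of 588.5 bp and 363 bp. In the upper 2 parts 210 of 233 wide sites (90.1%) were centred, as were 258 of 265 other pairs (97.4%).

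**Figure D4:**
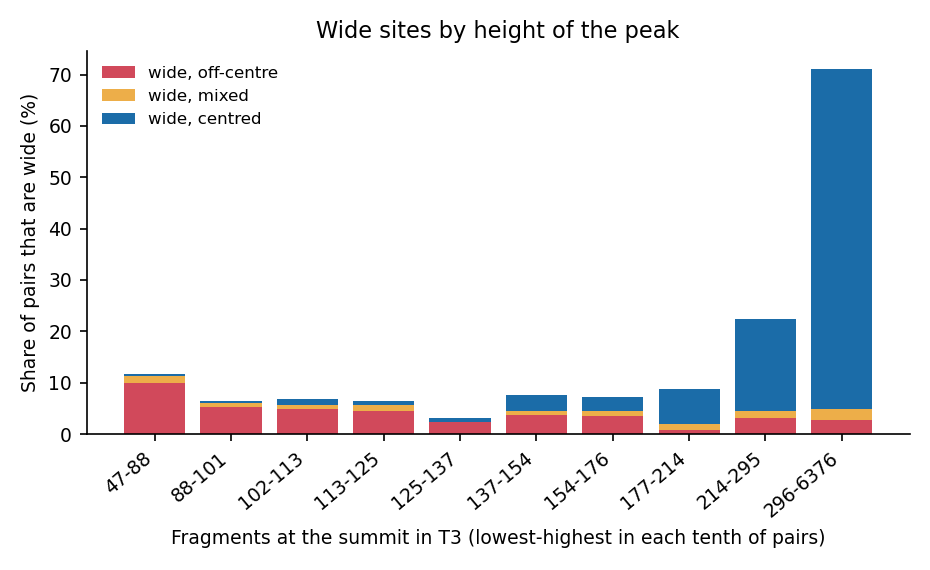
Share of overlapping pairs that are wide (vertical axis, %) in 10 equal parts of the pairs ordered by fragments at the T3 summit (horizontal axis, lowest and highest count in each part). Colours divide the wide sites by the place of the summit. Wide sites with few fragments are mostly off-centre, and those in the highest part, where 71.1% of pairs are wide, are mostly centred.

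All overlapping pairs in which the lower of both folds was above 14.8 were wide, and there were 95 of them. By the lower of both folds, the first pair to miss the width rule, at chr3:19622110-19622601, was 489 bp wide in T3 and 488 bp in T2, with folds of 14.9 and 14.8. Next came pairs at chr10:26544334-26544861 (folds of 14.7 in T3 and 15.3 in T2), at chr2:24279409-24279930 (16.1 and 14.5), at chr3:22952187-22952677 (15.5 and 14.4) and at chr9:16015272-16015857 (14.4 and 16.0). Each of these 5 pairs was centred, and their T3 widths of 487 to 496 bp fell just short of the threshold.

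The 5 strongest wide sites, ranked by the lower of the T2 and T3 folds, were all centred. Their folds were 36.4 to 57.2 in T2 and 49.7 to 78.1 in T3. The site at chr2:4138746-4139522 was 733 bp wide in T2 and 777 bp wide in T3. Its arms were 366 and 366 bp in T2 and 379 and 397 bp in T3. The site at chr4:15629665-15630413 was 699 bp wide in T2 and 749 bp in T3. The site at chr10:34460578-34461239 was 611 and 662 bp wide, and the site at chr10:35031579-35032286 was 633 and 708 bp wide. The site at chr3:1708811-1709523 was 671 and 713 bp wide. At these sites the shorter arm took 45.7% to 49.9% of the width, so these sites were nearly symmetric about their summits.

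The 10 widest sites, ranked by the smaller of both widths, were all off-centre. The widest, at chr4:11562538-11564095, measured 1521 bp in T2 and 1558 bp in T3. Its summit lay 304 bp from the left edge of the T3 peak and 1253 bp from the right edge. The folds were only 3.29 in T2 and 3.003 in T3, over a background of 26.0 and 27.0. In T2 392 fragments lay over the summit (95% exact Poisson interval from 354 to 433, counting error only). In T3 the number was 339 (304 to 377).

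The second widest site, at chr9:15262489-15263863, measured 1369 bp (T2) and 1375 bp (T3), and both lists began it at the same base. Its folds were 5.89 and 6.13, from 127 fragments in T2 (106 to 151) and 121 in T3 (100 to 145). The shorter arm was 185 bp in T2 and 168 bp in T3, close to that of an ordinary peak, and the longer arm was 1183 and 1206 bp. The third site, at chr8:21240039-21241206, measured 1117 bp in T2 and 1168 bp in T3. Its edges lay 18 and 33 bp apart between the lists, but its summits lay 646 bp apart. The T2 summit held 141 fragments and the T3 summit 140, so each list had its highest point at another end of the same stretch.

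Just 2 further sites reached 1000 bp in both lists. They lay at chr1:19379641-19380686 (1045 bp in T2 and 1036 bp in T3, folds of 8.61 and 8.93) and at chr2:9066954-9067978 (1008 and 1012 bp, folds of 9.65 and 9.11). Ranks 6 and 7 belonged to sites at chr5:6515595-6516625 (979 and 1023 bp, folds of 8.70 and 10.2) and chr5:16760748-16761729 (978 and 975 bp, folds of 9.39 and 9.89). Both had the long arm toward lower coordinates. The site at chr11:2245277-2246281 (959 and 970 bp) had folds of 10.2 in both lists, and the site at chr9:30889343-30890380 (1038 and 956 bp) had folds of 7.21 and 7.43.

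The last of the 10, at chr1:13350959-13351918, stood apart in strength. It was 951 bp wide in T2 and 907 bp in T3 with folds of 24.2 and 31.4, the highest of any off-centre wide site in either list. Both lists had the identical summit, 13351245, with 406 fragments in T2 and 482 in T3 over backgrounds of 2.81 and 2.79, close to the lowest of each list. Its shorter arm of 277 and 286 bp was like that of a strong centred site, and its longer arm of 673 and 620 bp was an extension beyond it. The third off-centre site with a fold of 10 or more in both lists lay at chr11:6650322-6651252, with folds of 12.4 and 14.2 and the identical summit in both lists. It was singled out after its values were seen.

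**Figure D5:**
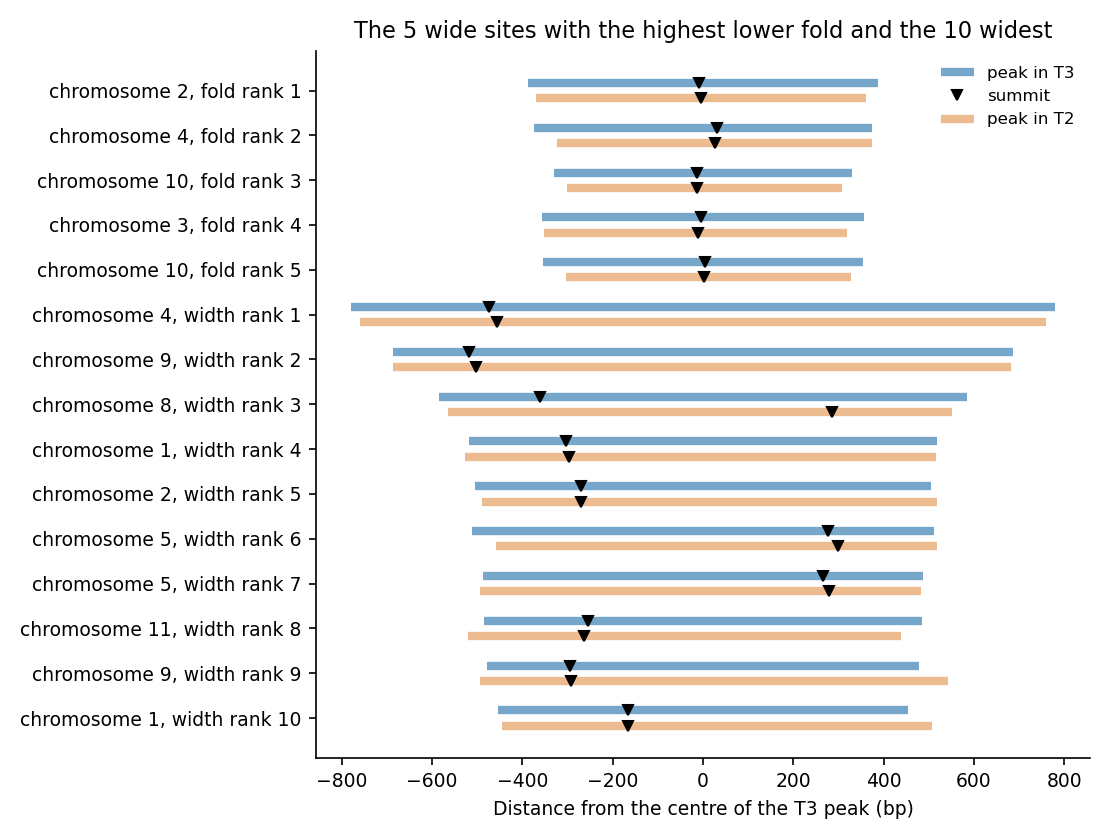
Extent of the T3 and T2 peaks (bars) and their summits (triangles) at the 5 wide sites ranked first by the lower fold of both lists and at the 10 widest sites, drawn to scale as the distance in bp from the centre of the T3 peak. The former 5 have summits near the middle. The 10 widest have summits toward 1 end, and in the third widest the summits of the lists are 646 bp apart.

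Summits more than 100 bp apart between the lists were found at 16 wide sites (4.23%), of which 13 were off-centre, and at 31 of the other pairs (1.47%). Within a shape the shares lay closer together. They were 12.7% of off-centre wide sites and 14.1% of off-centre other pairs (9 of 64). For centred sites they were 0.398% and 0.264%, and for mixed sites 8% and 11.4%. The 16 wide sites had summit distances of 104 to 1081 bp with a median of 353.5 bp. Their median folds were 3.98 in T2 and 4.46 in T3, and none exceeded 9.11 in T2 or 9.56 in T3. The greatest distance belonged to the site at chr9:7990101-7991506. There T3 called 1406 bp with the summit near the right end, and T2 called 637 bp in the left part with the summit near the left end. The T2 summit held 72 fragments and the T3 summit 85.

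Next after it came the chromosome 8 site with summits 646 bp apart described above. Sites at chr1:3717491-3718274 (472 bp), chr5:30563832-30564548 (461 bp) and chr10:11306394-11307213 (453 bp) followed. At the chromosome 1 site the shorter arm was 160 bp in T2 and 151 bp in T3, measured from opposite edges. So the summit lay about as far inside the left edge in T3 as inside the right edge in T2.

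A further wide T3 peak lay over more than 1 T2 peak. At chr2:20107183-20108759, T3 called a single peak of 1577 bp, the widest of all wide sites. T2 called it as a peak of 315 bp with its summit at 20107386 and a peak of 888 bp with its summit at 20108544. The T3 summit at 20108526 was 18 bp from the second of these and 1140 bp from the first. The T2 folds were 4.63 at the narrow peak, from 99 fragments, and 7.17 at the wide one, from 118 fragments. Here the wide T3 peak corresponded to separate peaks in the other list.

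The most off-centre sites, ranked by the larger of the shares that the shorter arm took in T2 and T3, included the chromosome 9 sites of 1375 bp and 1406 bp in T3 described above. The most extreme lay at chr10:24482957-24483501. Its shorter arm was 72 bp in T2 and 60 bp in T3, or 13.3% and 11.03% of the width, with folds of 2.52 and 2.60. A site at chr5:34994611-34995161 had its shorter arm at 33 bp (T2) and 86 bp (T3), with folds of 3.12 and 2.98. A site at chr11:1924855-1925556 had the identical summit in both lists, arms of 101 and 582 bp in T2 and of 117 and 584 bp in T3, and folds of 5.24 and 6.15.

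A few wide sites had low folds over a high background. Ranked by the lower of both folds, the lowest values, 1.24 in T2 and 1.32 in T3, were those of a centred site at chr11:8308436-8309021, where the background was 599 and 559. Next came an off-centre site at chr10:29540499-29541154, with folds of 1.58 and 1.51 over a background of 168 and 172. At chr8:15613531-15614075 the folds were 1.95 and 2.06 and the background 41.0 and 38.0. These are among the 5 wide sites whose background was more than 10 times the lowest value of a list. The other two lay at chr10:7208812-7209347 (folds of 3.24 and 3.02) and at chr4:17451791-17452618 (3.59 and 3.53), and were added after their values were seen.

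The next lowest folds occurred over less extreme backgrounds. At chr2:6281101-6281735 the fold was 3.23 in T2 and 2.08 in T3, over a background of 10.001 and 17.0, with summits 88 bp apart. After it came the chromosome 10 site ranked above as the most off-centre, where the background was 14.0 in both lists. High background was rare among wide sites, at 5 of 378 (1.32%) in each list, and among the other pairs, at 16 (0.758%) in T2 and 17 (0.806%) in T3.

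Folds at wide sites were higher in T3 than in T2 more often than at the other pairs, and this too differed by shape. T3 was higher at 320 of the 378 wide sites (84.7%), with a median ratio of 1.17, and at 1438 of the 2110 other pairs (68.2%), with a median ratio of 1.06. Centred wide sites had a median ratio of 1.22 and were higher in T3 at 234 of 251. Off-centre wide sites had a median ratio of 1.07 and were higher in T3 at 68 of 102, near the values of the other pairs. The rule asked for a larger width in T3. With the thresholds exchanged, so that the larger width was asked of T2, the median ratio at wide sites was 1.15, and with 450 bp asked of both lists it was 1.14.

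Wide sites were spread over all 11 chromosomes in close proportion to the shared sites. They made up between 13.4% of the pairs on chromosome 9 and 17.6% on chromosome 4, with a mean of 15.3% ± 1.43 (SD over 11 chromosomes). The fewest, 29, were on chromosome 3 and the most, 40, on chromosome 1. Per Mb up to the last peak of a chromosome, their density was between 0.793 (chromosome 2) and 1.26 (chromosome 6). The median T3 fold of wide sites ran from 9.59 on chromosome 7 to 13.6 on chromosome 1. The off-centre share was lowest on chromosome 8, at 21.2%, and highest on chromosome 2, where 12 of 30 wide sites were off-centre.

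Along the chromosomes the shares of wide sites and of the other pairs lay close together, and their difference was not tested. The first and last 20% of the chromosomes together held 189 of the 378 wide sites and 1051 of the 2110 other pairs (49.8%). The central 20% held 48 wide sites (12.7%) and 250 other pairs (11.8%). By shape, the outer parts held 51.8% of centred and 47.1% of off-centre wide sites, and the central part 11.6% and 15.7%. The Wilson intervals of the last pair of shares, 8.17 to 16.1 and 9.89 to 24.0, overlap.

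Another shared site lay within 10 kb of 62 wide sites (16.4%) and of 309 other pairs (14.6%). Wide sites themselves were mostly far from each other, with a median of 303233 bp to the nearest wide neighbour, and 12 sites, in 6 neighbouring pairs, had another within 10 kb. The closest pair lay on chromosome 8 with summits 2215 bp apart in T3. Its members were a centred site (chr8:3917201-3917736) with folds of 18.4 in T2 and 21.5 in T3, and a mixed site (chr8:3919234-3919887) with folds of 4.35 and 3.92. So a strong centred site had a weak, uneven one beside it.

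The next pair, on chromosome 9 with summits 5311 bp apart, joined a centred site at chr9:9169627-9170126 (folds of 8.15 and 8.09) to an off-centre site at chr9:9174700-9175400 (5.23 and 6.27). On chromosome 7, 5419 bp separated an off-centre site at chr7:19423314-19423911 (5.91 and 6.96) and a centred site at chr7:19428631-19429186 (10.9 and 15.4). On chromosome 4, 6743 bp separated an off-centre site at chr4:17021987-17022595 (4.49 and 4.31) and a centred site at chr4:17028589-17029208 (24.4 and 35.1). The pair on chromosome 6, 5455 bp apart, joined centred sites at chr6:6593347-6593905 (13.1 and 14.8) and chr6:6598732-6599327 (18.2 and 27.1). The last pair, on chromosome 1 and 9641 bp apart, was also of centred sites. Which genes lie at the wide sites and which sequence motifs they hold was not analysed here.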

How the data were processed

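The tools were Bowtie2, Picard, MACS2 and bedtools, per the submitters' processing notes. Their versions and settings, and the assembly behind the coordinates, were not given in the sources used here. Per the file headers, each deposited peak has a start, end, length, summit, pileup signal and fold enrichment ratio. Columns with damaged headers were read as the deposited −log10 p and −log10 q, from the column order of a MACS2 table and because p was the smaller in 100% of peaks. Sheet T1 was identical to T3, which left 2 lists of 2846 (T2) and 3288 (T3) peaks. They were read as ClNAC56 peaks because MBP is labelled as the control. Chromosomes named Cla97Chr01 to Cla97Chr11 in the lists are written chr1 to chr11, and site coordinates span both peaks.

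Lists were joined in Python 3.11.15 with pandas 2.3.3. Fragments are the pileup divided by 0.224 (T2) or 0.245 (T3), which left residuals of at most 0.0054. Background is (pileup + 1) / fold − 1. The fewest fragments were 51 in T2 and 47 in T3, and total depth is unknown. The steps were tested on simulated lists. Members, classes and rules were chosen with earlier results of these data known, so no significance test was run. The named sites are the 10 widest, the 5 each of highest and lowest fold (by the lower of both lists), largest summit distance and most off-centre summit, those over several T2 peaks, the 5 closest neighbours within 10 kb, 3 on each side of the thresholds, and the 5 outside them with the highest lower fold. The motif and gene steps were not run.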

Additional observations from a re-analysis of the deposited data

How the results depend on the processing

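With T3 widths of 600 bp or more and T2 widths of 550 bp or more, 131 sites were wide (5.27% of pairs), with median folds of 8.92 in T3 and 7.91 in T2, and 49.6% were off-centre. With 450 bp in both lists 20.9% of pairs were wide and 21.1% of these off-centre, and with the thresholds exchanged 12.4% and 31.8%. A −log10 q of 5 or more left 21.7% off-centre. A fold of 5 or more in both lists gave 17.2% wide, medians of 14.7 and 12.1, and 15.3% off-centre. Reciprocal 50% overlap, summits within 100 bp and low background kept each main value within its interval, or within 1.5 times for the count. With scaffolds included only the count was taken, and it was 379. The share of wide sites in the first and last 20% of the chromosomes was 44.3% with the widths of 600 and 550 bp. Of settings added after seeing the data, T3 width alone gave 16.8% wide. T2 width alone gave 610 sites (24.5%), medians of 10.1 and 9.21, and 19.3% off-centre. Asking for a longer arm of 1.5 times the shorter gave 36.2% off-centre, and of 3 times 13.2%. The off-centre share thus depended on the width threshold, the fold limit and the cut on the arms. The median folds also moved with widths of 600 and 550 bp, with the fold limit and with T2 width alone. The share of wide sites with a fold of 10 or more in both lists was 51.1% by the main rule. It was 40.5% with widths of 600 and 550 bp, 42.5% with T2 width alone and 61.5% with the fold limit. No paired analysis was possible because no list is tied to a numbered library. Lists are not known to be replicates, so none was left out as one. Among wide sites, the off-centre ones had fewer fragments than the centred ones, so counting error is larger there.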

Other observations

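Wide peaks that only a single list called were almost all off-centre. Of the 441 T3 peaks of 500 bp or more on chromosomes 1 to 11, 25 overlapped no T2 peak, and in all 25 the longer arm was at least 2 times the shorter. Of the 642 T2 peaks of 450 bp or more, 32 overlapped no T3 peak, and 31 were off-centre. Their median folds were 3.79 in T3 and 3.48 in T2, from a median of 73 and 80 fragments. These peaks were as long as the members, with medians of 585 bp in T3 and 534.5 bp in T2, but weak. The off-centre share of narrower peaks called by a single list was not computed. The shape therefore cannot be called particular to the wide ones. Of all T3 peaks of 500 bp or more 36.1% were off-centre in T3, and of all T2 peaks of 450 bp or more 29.8% in T2. Over all widths the lists held 3288 (T3) and 2846 (T2) peaks, with 2489 overlapping pairs on the chromosomes. On these counts wide peaks lacked a partner less often than peaks over all widths. The list totals also include peaks outside chromosomes 1 to 11, and the difference was not tested.

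A further 38 wide T3 peaks overlapped a T2 peak of under 450 bp. Their median width was 532 bp and their median T3 fold 6.40, and 22 were off-centre in T3. In the other direction, 232 T2 peaks of 450 bp or more overlapped a T3 peak of under 500 bp. They had a median width of 471.5 bp and a median T2 fold of 8.52, and 43 were off-centre in T2. These values were looked up after the lists had been seen, and no test was made.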
